A study of Homo sapiens with 12 samples.

Results

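The 10 genes described here encode classical cadherins of types I and II: CDH1 and CDH2, the pair of the cadherin switch, and CDH3, CDH4, CDH5, CDH6, CDH8, CDH9, CDH11 and CDH12. They were chosen by name, as the entries of the count matrix that carry one of these symbols, and are 10 of the 35940 symbols in it. Each symbol stood on 1 Ensembl identifier except CDH4, whose 2 identifiers were summed. RNA was measured in 12 libraries of ESI017 SOX2::mCitrine, 1 human embryonic stem cell line whose fluorescent reporter follows the transcription factor SOX2. Colonies on micropatterned coverslips received FGF8 (200 ng/ml) and WNT3A (100, 300 or 1000 ng/ml) during 3 days, or N2B27 medium with neither (control). A cell sorter split the cells of treated colonies into SOX2-negative and SOX2-positive. The groups were SOX2-negative cells at 100 ng/ml (2 libraries), 300 ng/ml (1 library) and 1000 ng/ml (2 libraries), SOX2-positive cells at the same doses (2, 1 and 2 libraries), and control colonies (2 libraries), for which the labels name no gate. Every treated group received both FGF8 and WNT3A, so no comparison separates these agents.

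Cadherins are calcium-dependent adhesion proteins that span the cell membrane, bind their like on the neighbouring cell, and hold the actin cytoskeleton through catenins bound to their cytoplasmic tails. Epithelia, including the epiblast and cultured pluripotent stem cells, carry E-cadherin (CDH1), while mesenchyme and neural tissue carry N-cadherin (CDH2). The replacement of E-cadherin by N-cadherin, called the cadherin switch, is known from gastrulation, when cells leave the epiblast through the primitive streak, and from the neural plate. The type II cadherins, among them CDH6, CDH8, CDH9, CDH11 and CDH12, are best known from boundaries and connections in the nervous system and, for CDH11, from mesenchyme.

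The libraries held 16474856 to 28079048 estimated counts, and levels are given as CPM, counts scaled to the same library total. SOX2, the gene behind the sort, stood at 1.85 to 6.07 CPM in SOX2-negative libraries, 430 to 484 CPM in SOX2-positive libraries and 649 to 658 CPM in control libraries, in the order of the labels. Of the markers tested, 8 of 8 for definitive endoderm and 6 of 7 for mesoderm were higher in SOX2-negative than SOX2-positive cells. For pluripotent cells 5 of 7 were lower. Of all genes tested, 12.9% were higher and 11.1% lower. SOX2-negative cells at 100 ng/ml, replicate 2, stood apart on the second principal component, at 48.0 against -12.9 to 0.28 in the other SOX2-negative libraries. Values without this library are given below for the gates, for SOX2-negative cells against control and for dose in SOX2-negative cells. In sorted or whole populations, fewer cells expressing a gene and less RNA per cell cannot be told apart. P-values are from edgeR's quasi-likelihood test with Benjamini-Hochberg adjustment over all 17047 genes tested, at a threshold of 0.05. They measure the spread between repeats of 1 cell line. The model behind them treats the 12 libraries as independent, with no term that pairs the gates of the same dose and replicate. Fold changes between the gates average 100 and 1000 ng/ml, and the mean ± SD beside them is over those 4 libraries per gate.

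Between the gates, 9 of the 10 cadherins differed: CDH2, CDH5, CDH8, CDH11 and CDH12 were higher in SOX2-negative than in SOX2-positive cells, and CDH1, CDH4, CDH6 and CDH9 were lower. CDH3 did not pass the test. Of all genes tested, 24.0% were called in this comparison, 12.9% higher and 11.1% lower. The median absolute log2 fold change was 3.19 over the 10 cadherins and 0.42 over all genes. Members were chosen with earlier results of these data known, so neither contrast, nor those with control below, tests cadherins as a set. Every one of the 9 calls held under each alternative run, including each library left out in turn, while the number of genes called ran from 2638 (without SOX2-positive cells at 100 ng/ml, replicate 2) to 6835 (without SOX2-negative cells at 100 ng/ml, replicate 1). Without the library that stood apart, all 10 cadherins were called. The log2 fold changes were then -1.95 for CDH1, 3.34 for CDH2, -0.90 for CDH4, 3.24 for CDH5, -4.58 for CDH6, 3.32 for CDH8 and 2.43 for CDH11.

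**Figure D1:**
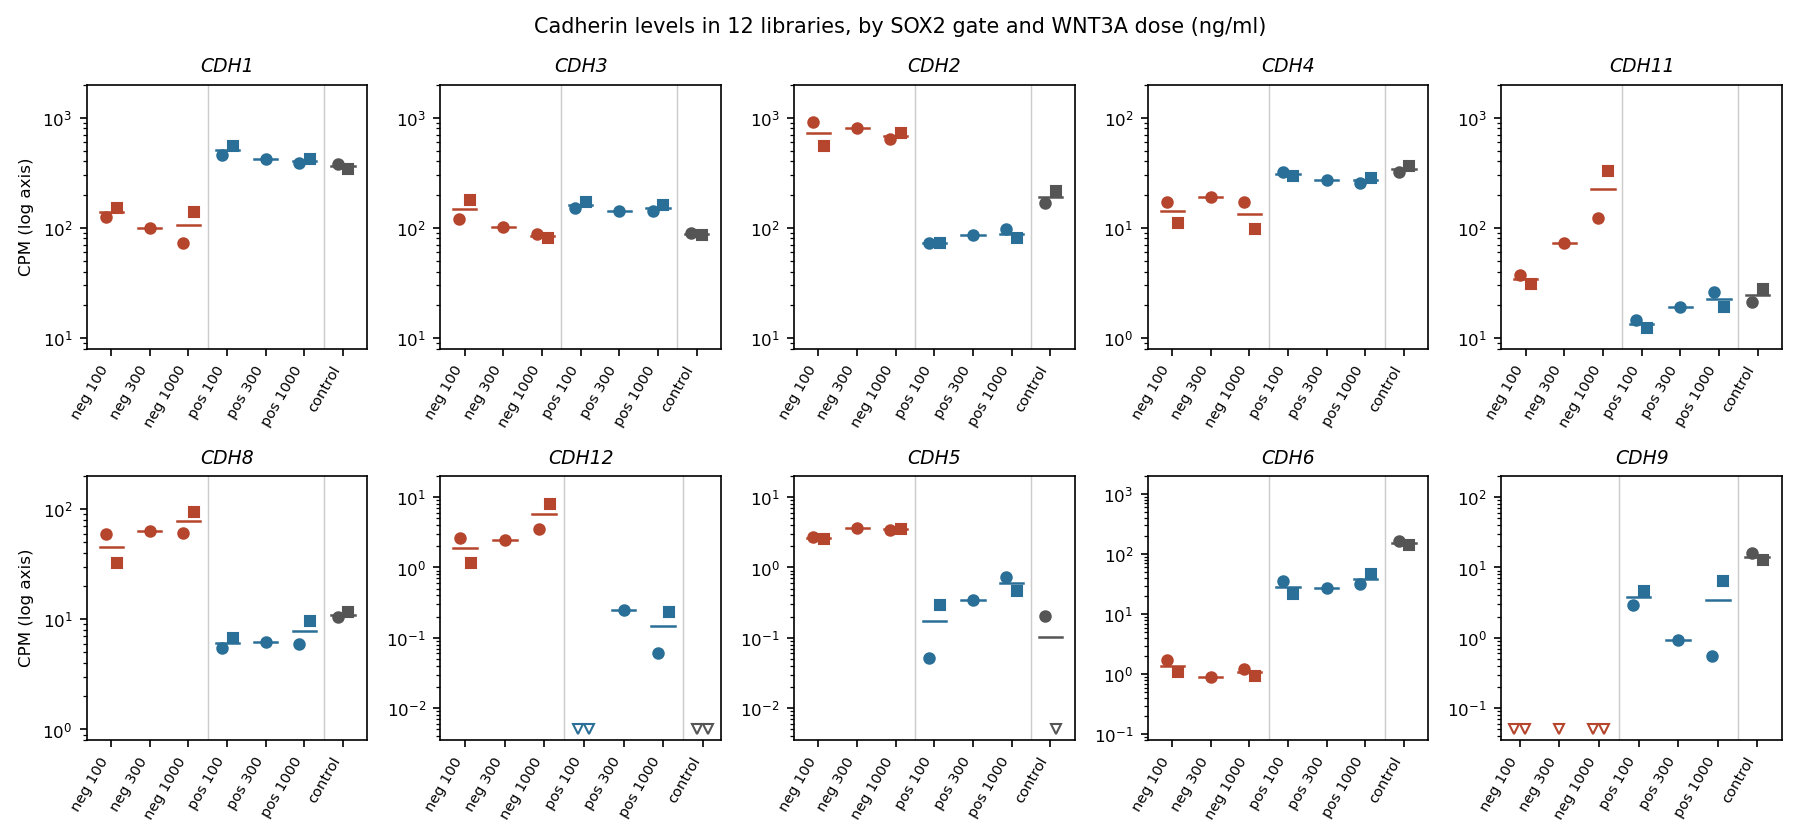
Level of each cadherin in all 12 libraries, in CPM on a log axis, by group: SOX2-negative (neg), SOX2-positive (pos) and control, with the WNT3A dose in ng/ml. Circles are replicate 1, squares replicate 2, bars group means and open triangles libraries with 0 counts. The SOX2-negative and SOX2-positive libraries of CDH1, CDH2, CDH4, CDH5, CDH6, CDH8, CDH9, CDH11 and CDH12 do not overlap, and those of CDH3 do.

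CDH1, which encodes E-cadherin, the adhesion protein of epithelia and of the pluripotent epiblast, was lower in SOX2-negative cells but not lost. Its level was 124 and 153 CPM at 100 ng/ml, 99.8 CPM at 300 ng/ml and 73.3 and 138 CPM at 1000 ng/ml in SOX2-negative cells. In SOX2-positive cells it was 459 and 553 CPM at 100 ng/ml, 420 CPM at 300 ng/ml and 389 and 425 CPM at 1000 ng/ml, and in control colonies 379 and 345 CPM. All 5 SOX2-negative libraries lay below every other library, and the control libraries lay below every SOX2-positive one. The means were 122 ± 34.6 CPM in SOX2-negative cells and 457 ± 70.1 CPM in SOX2-positive cells, a log2 fold change of -1.82 ± 0.21 (SE; adjusted p = 0.000116, edgeR).

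CDH3 lies 14.6 kb from CDH1 on chromosome 16 and encodes P-cadherin, an epithelial cadherin of skin and placenta. It had 120 and 178 CPM at 100 ng/ml, 102 CPM at 300 ng/ml and 87.4 and 80.9 CPM at 1000 ng/ml in SOX2-negative cells. In SOX2-positive cells it had 150 and 173 CPM, 141 CPM and 141 and 163 CPM at the same doses, and in control colonies 90.3 and 86.4 CPM. The gates overlapped through SOX2-negative cells at 100 ng/ml, replicate 2, which was the highest library of all 12. The log2 fold change was -0.39 ± 0.17 (SE; 95% interval -0.78 to -0.01), with an adjusted p of 0.132 by edgeR. Without that library it was -0.60, with an adjusted p of 0.00505.

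CDH2 encodes N-cadherin, the counterpart of E-cadherin in the switch. SOX2-negative cells held 911 and 551 CPM at 100 ng/ml, 807 CPM at 300 ng/ml and 646 and 727 CPM at 1000 ng/ml. SOX2-positive cells held 73.0 and 72.1 CPM, 85.7 CPM and 96.6 and 80.9 CPM at the same doses, and control colonies 169 and 214 CPM. The 3 sets of libraries did not overlap, with control colonies between the gates. The means were 709 ± 153 CPM in SOX2-negative cells and 80.6 ± 11.4 CPM in SOX2-positive cells, a log2 fold change of 3.21 ± 0.18 (SE; adjusted p = 1.03e-06, edgeR).

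CDH4, or R-cadherin, is the closest relative of N-cadherin and is known from retina and brain. It ran the other way: 17.1 and 11.1 CPM at 100 ng/ml, 19.1 CPM at 300 ng/ml and 17.0 and 9.74 CPM at 1000 ng/ml in SOX2-negative cells. SOX2-positive cells had 32.2 and 29.6 CPM, 27.3 CPM and 25.5 and 28.3 CPM, and control colonies 32.4 and 36.3 CPM. Every SOX2-negative library was below every other, and the log2 fold change between the gates was -1.0 ± 0.20 (SE; adjusted p = 0.00489, edgeR). The counting can split reads between the 2 CDH4 identifiers, of which the second has no entry in GENCODE 29. Tested apart, ENSG00000179242 had a log2 fold change of -1.0 ± 0.31 (adjusted p = 0.0453) and ENSG00000280641 one of -1.02 ± 0.24 (adjusted p = 0.0135, both edgeR).

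CDH11, known as OB-cadherin from bone-forming and other mesenchymal cells, was higher in SOX2-negative cells and differed most among them. It had 37.4 and 31.1 CPM at 100 ng/ml, 72.8 CPM at 300 ng/ml and 124 and 326 CPM at 1000 ng/ml, so that the highest SOX2-negative library was 10.5 times the lowest. SOX2-positive cells had 14.5 and 12.4 CPM, 19.0 CPM and 26.1 and 19.0 CPM at the same doses, and control colonies 21.2 and 27.6 CPM. The lowest SOX2-negative library stood above the highest of the others. The log2 fold change between the gates was 2.41 ± 0.28 (SE; adjusted p = 0.00013, edgeR).

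The mesenchyme markers did not move as a list: 1 of 7 tested was higher in SOX2-negative than SOX2-positive cells, where 12.9% of all genes were. That marker was TWIST1, a transcription factor of early mesoderm that also stands in the list of CDH1 regulators below. The summed level of the mesenchyme markers was 290 to 946 CPM in SOX2-negative, 333 to 478 CPM in SOX2-positive and 155 to 253 CPM in control libraries. None of these markers was at 0 throughout any of these sets. The part of such cells in the CDH11 level was not tested.

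CDH8 is a type II cadherin of brain circuits. SOX2-negative cells had 59.4 and 32.2 CPM at 100 ng/ml, 62.9 CPM at 300 ng/ml and 61.3 and 93.8 CPM at 1000 ng/ml. SOX2-positive cells had 5.44 and 6.72 CPM, 6.17 CPM and 6.01 and 9.70 CPM, and control colonies 10.5 and 11.6 CPM. The SOX2-negative libraries lay apart from the rest, and the log2 fold change between the gates was 3.17 ± 0.25 (SE; adjusted p = 9.17e-06, edgeR).

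CDH6, or K-cadherin, is known from kidney and, in chick and mouse, from early neural crest. It was low in SOX2-negative cells, at 1.70 and 1.08 CPM, 0.90 CPM and 1.21 and 0.94 CPM at 100, 300 and 1000 ng/ml. SOX2-positive cells held 35.1 and 21.7 CPM, 26.8 CPM and 31.4 and 46.2 CPM, and control colonies 168 and 143 CPM. The 3 sets of libraries were far apart, with SOX2-positive cells between the others. The log2 fold change between the gates was -4.70 ± 0.25 (SE; adjusted p = 9.53e-07, edgeR). Of 6 neural crest markers tested, 1 was higher and 2 were lower in SOX2-negative than SOX2-positive cells, where 24.0% of all genes were called. The list came to a summed 13.5 to 48.0 CPM in SOX2-negative, 47.8 to 85.7 CPM in SOX2-positive and 159 to 217 CPM in control libraries, and none of its genes was at 0 throughout a set. Most of the control sum was TFAP2A, with 210 and 150 CPM in control colonies, against 1.69 to 7.76 CPM in SOX2-negative and 5.48 to 43.2 CPM in SOX2-positive libraries. FOXD3 ran otherwise, at 0.08 to 0.64 CPM in SOX2-negative, 28.6 to 43.5 CPM in SOX2-positive and 0.86 and 0.32 CPM in control libraries. The part of neural crest cells in the CDH6 level was not tested.

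CDH9 and CDH12, also type II cadherins of the nervous system, were each close to absent from one side of the sort. CDH9 had 0 counts in all 5 SOX2-negative libraries. SOX2-positive cells had 2.93 and 4.69 CPM at 100 ng/ml, 0.94 CPM at 300 ng/ml and 0.55 and 6.45 CPM at 1000 ng/ml, and control colonies 15.9 and 12.7 CPM. Against a floor of 3 counts over the 4 libraries, CDH9 was at least 105-fold lower in SOX2-negative than in SOX2-positive cells (adjusted p = 0.000946, edgeR). The SOX2-positive libraries spread widely, and the highest was 11.8 times the lowest.

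CDH12 was the mirror case. SOX2-negative cells had 2.61 and 1.15 CPM at 100 ng/ml, 2.43 CPM at 300 ng/ml and 3.56 and 8.01 CPM at 1000 ng/ml. SOX2-positive cells had 0 counts in both libraries at 100 ng/ml, 0.25 CPM at 300 ng/ml and 0.06 and 0.23 CPM at 1000 ng/ml, and both control libraries had 0 counts. Over the 4 libraries per gate this was 336 counts in SOX2-negative and 6 counts in SOX2-positive cells (adjusted p = 0.000481, edgeR). The fitted log2 fold change of 6.79 depends on the prior count, because 1 dose of the SOX2-positive gate had no count, and it was 7.41 without SOX2-positive cells at 1000 ng/ml, replicate 2.

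The windows upstream of CDH9 and CDH12 are shown because these genes had the most complete on and off patterns of the set. The CDH2 window is shown because CDH2 belongs to the pair of the cadherin switch. Each runs from 250 bases before to 50 after the start of the RefSeq transcript that begins furthest upstream (GRCh38.p14), read 5′ to 3′ on the minus strand. Capitals mark CTTTGA, the core of the site that TCF/LEF factors of the WNT pathway bind, or its reverse complement TCAAAG.
CDH2, chr18:28177081-28177380: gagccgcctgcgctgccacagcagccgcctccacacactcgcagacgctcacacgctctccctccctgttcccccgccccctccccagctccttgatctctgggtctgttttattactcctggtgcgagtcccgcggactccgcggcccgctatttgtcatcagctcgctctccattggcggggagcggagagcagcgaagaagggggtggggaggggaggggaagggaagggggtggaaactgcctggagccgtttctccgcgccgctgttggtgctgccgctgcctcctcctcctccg
CDH9, chr5:27038537-27038836: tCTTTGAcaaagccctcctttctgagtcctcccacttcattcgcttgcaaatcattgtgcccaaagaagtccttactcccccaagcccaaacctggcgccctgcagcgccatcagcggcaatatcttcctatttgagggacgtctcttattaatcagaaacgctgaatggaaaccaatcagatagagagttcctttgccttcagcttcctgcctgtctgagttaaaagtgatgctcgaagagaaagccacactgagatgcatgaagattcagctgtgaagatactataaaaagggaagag
CDH12, chr5:22853295-22853594: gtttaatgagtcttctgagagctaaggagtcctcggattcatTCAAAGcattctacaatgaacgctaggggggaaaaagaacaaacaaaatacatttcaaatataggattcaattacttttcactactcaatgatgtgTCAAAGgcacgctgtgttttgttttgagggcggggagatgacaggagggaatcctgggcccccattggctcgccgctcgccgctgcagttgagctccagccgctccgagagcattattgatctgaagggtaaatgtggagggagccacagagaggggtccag
The letters stood once in the CDH9 window, 249 to 244 bases before the start, and at 208 to 203 and 112 to 107 bases before the start in the CDH12 window. They were not in the CDH2 window. Of 35116 RefSeq windows of the same length, 12.9% held them on either strand. Windows were at hand for 5 of the 10 members: CDH2, CDH4, CDH8, CDH9 and CDH12. CDH1, CDH3, CDH5, CDH6 and CDH11 had none, so neither motif was sought there. In the others of the 10 windows at hand, the core stood once in a further CDH12 window and once in a CDH8 window. The E-box CAGGTG or its reverse complement CACCTG, the letters that SNAI and ZEB repressors bind, stood in 1 CDH4 window and in 20.6% of all windows. G and C made up 67% of the CDH2 window, 46.7% of the CDH9 window and 48.3% of the CDH12 window, against a median of 58.7% over all windows. Counts per gene do not show which start a transcript used, and a match of letters is not a bound site.

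CDH5 encodes VE-cadherin, the adhesion protein of endothelial cells. It was low throughout, at 2.73 and 2.57 CPM, 3.65 CPM and 3.41 and 3.53 CPM in SOX2-negative cells at 100, 300 and 1000 ng/ml. SOX2-positive cells had 0.05 and 0.30 CPM, 0.35 CPM and 0.73 and 0.46 CPM, and control colonies 0.20 CPM and 0 counts. The gates did not overlap, and the log2 fold change was 3.27 ± 0.67 (SE; adjusted p = 0.00513, edgeR), or 4.12 without SOX2-positive cells at 100 ng/ml, replicate 2.

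Between the gates 24.0% of all genes were called. Of 10 endothelial markers tested, 4 were higher in SOX2-negative than SOX2-positive cells and 1, the VEGF receptor KDR, was lower. The higher ones were PECAM1, ESAM, CD34 and TIE1, all at low levels, with PECAM1 at 4.82 to 6.01 CPM in SOX2-negative, 0 to 1.18 CPM in SOX2-positive and 0 to 0.76 CPM in control libraries. EMCN had 0 counts in all 5 SOX2-negative libraries. KDR had 20.3 and 20.2 CPM at 100 ng/ml, 41.9 CPM at 300 ng/ml and 81.6 and 271 CPM at 1000 ng/ml in SOX2-negative cells. SOX2-positive libraries had 98.6 to 196 CPM of KDR. At 1000 ng/ml, replicate 2, KDR in SOX2-negative cells was thus above every SOX2-positive library, and it was most of the list's sum there. The list summed to 49.6 to 304 CPM in SOX2-negative, 122 to 224 CPM in SOX2-positive and 53.2 to 74.9 CPM in control libraries, and its part in the CDH5 level was not tested.

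Because CPM favours long transcripts, levels of different cadherins were compared per kilobase of the longest coding transcript in GENCODE 29. In SOX2-negative cells CDH2 led at 164 CPM per kb, followed by CDH1 (25), CDH3 (23.7), CDH11 (18.8) and CDH8 (6.34 CPM per kb), of which neighbours from CDH1 to CDH8 overlapped over the 4 libraries. CDH4, CDH12 and CDH5 came next at 2.11, 0.92 and 0.74 CPM per kb and overlapped their neighbours, and CDH6 stood at 0.15 CPM per kb, with CDH9 at 0. In SOX2-positive cells the order was CDH1 (93.4), CDH3 (31.8) and CDH2 (18.6 CPM per kb), with no overlap between neighbours. After these came CDH4 (4.44), CDH6 (3.96), CDH11 (2.62), CDH9 (1.19) and CDH8 (0.72 CPM per kb), each overlapping the next, and then CDH5 (0.09) and CDH12 (0.02 CPM per kb), which overlapped.

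In control colonies CDH1 (74.1) and CDH2 (44.2 CPM per kb) led without overlap, CDH6 (18.3) and CDH3 (17.9 CPM per kb) overlapped, and CDH4 (5.27) and CDH9 (4.64 CPM per kb) overlapped. CDH11, CDH8, CDH5 and CDH12 were lower, at 3.55, 1.14, 0.02 and 0 CPM per kb.

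These orders depend on the transcript length assumed, as a repeat with the median coding transcript, chosen after seeing the data, showed. That median was 740 nt for CDH2 and 924 nt for CDH11, where the longest were 4332 and 6874 nt. For CDH1 it was 3304 nt, with 4889 nt for the longest. Whether transcripts as short as these medians were the ones expressed was not tested. In SOX2-negative cells CDH2 still led and CDH11 (140 CPM per kb of median length) came before CDH3 (55.8) and CDH1 (37.0). In SOX2-positive cells CDH2 (109) moved ahead of CDH3 (74.9) and overlapped CDH1 (138 CPM per kb of median length). In control colonies CDH2 (258.9) moved ahead of CDH1 (110), and CDH6 (28.1) fell behind CDH3 (42.3 CPM per kb of median length).

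The ratio of CDH2 to CDH1 per kilobase was 8.28 and 4.07 at 100 ng/ml, 9.13 at 300 ng/ml and 9.93 and 5.93 at 1000 ng/ml in SOX2-negative cells. In SOX2-positive cells it was 0.18 and 0.15, 0.23 and 0.28 and 0.21 at the same doses, and in control colonies 0.50 and 0.70. Every SOX2-negative library had more CDH2 than CDH1, and every other library had more CDH1 than CDH2. With the median length of coding transcripts (740 nt for CDH2, 3304 nt for CDH1) in place of the longest, the control mean became 2.38. The order of CDH2 and CDH1 in control colonies thus depends on the transcript length assumed. So does that in SOX2-positive cells at 1000 ng/ml, replicate 1, where CDH1 came to 0.90 times CDH2 with the median length. The same factor scales the ratio in every library, so its order among libraries is the same with either length.

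The 10 cadherins together came to 205 to 276 CPM per kb in SOX2-negative, 143 to 176 CPM per kb in SOX2-positive and 169 CPM per kb in both control libraries. Within this sum, CDH2 made up 61.3 to 76.3% in SOX2-negative cells, 9.45 to 15.6% in SOX2-positive cells and 23.1 to 29.2% in control colonies. CDH1 made up 7.13 to 15.2%, 55.7 to 64.2% and 41.7 to 45.9% in the same sets. CDH11 reached 17.3% of the sum in SOX2-negative cells at 1000 ng/ml, replicate 2, and CDH6 was 9.96 to 11.7% in control colonies. With the median length, CDH2 made up 67.9 to 88.6% in SOX2-negative cells, 25.4 to 36.2% in SOX2-positive cells and 47.5 to 54.9% in control colonies, and CDH1 2.03 to 5.00%, 32.7 to 43.5% and 19.8 to 23.9%. With either length the 3 sets of libraries did not overlap in the share of CDH1 or of CDH2, while the sizes of the shares depend on the length.

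**Figure D2:**
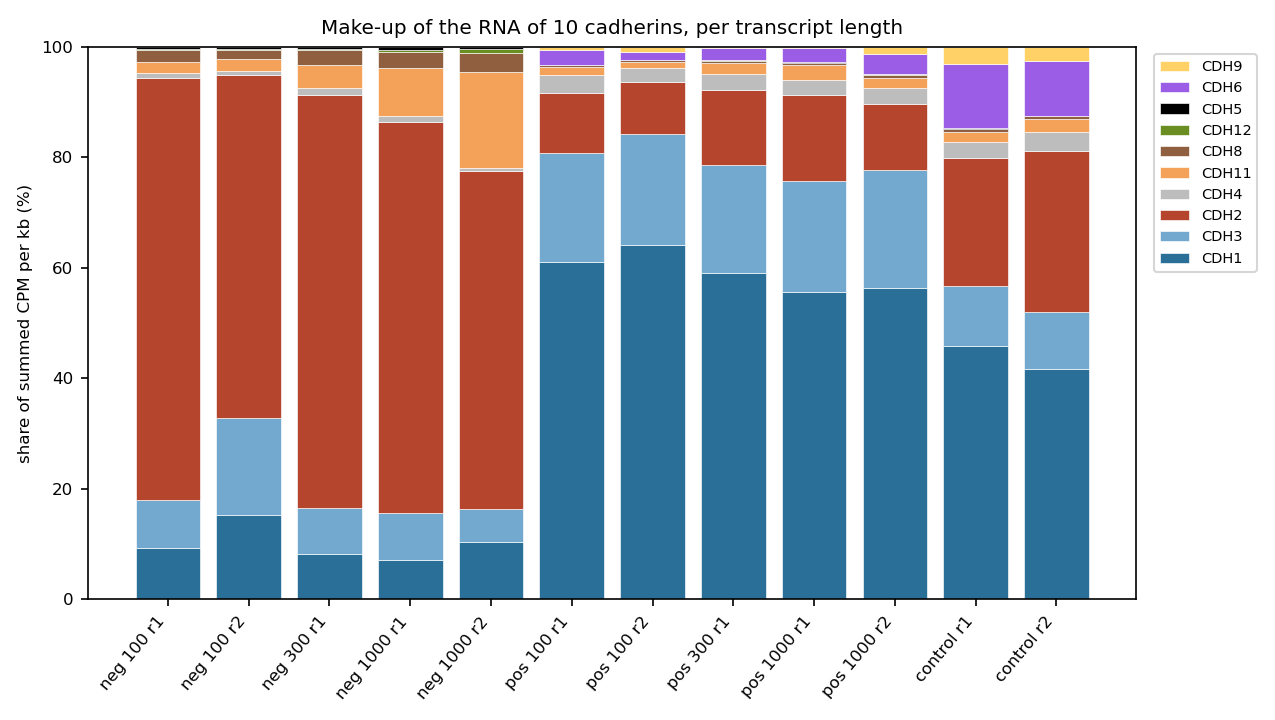
Share of each cadherin in the summed level of the 10 genes (percent of CPM per kilobase of longest coding transcript), 1 bar per library, ordered as SOX2-negative (neg), SOX2-positive (pos) and control libraries with the WNT3A dose in ng/ml and the replicate. CDH2 makes up 61.3 to 76.3% of the bars of SOX2-negative cells, and CDH1 55.7 to 64.2% of those of SOX2-positive cells. With the median transcript length these were 67.9 to 88.6% and 32.7 to 43.5%.

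Against control colonies, the same 5 cadherins were higher in SOX2-negative cells and the same 4 lower, which is 9 of 10 called where 22.5% of all genes were, 12.4% higher and 10.1% lower. This comparison and that between the gates share the SOX2-negative libraries, and both comparisons with control share the control libraries. The log2 fold changes were 1.89 ± 0.22 (SE) for CDH2 (adjusted p = 0.000148), 2.43 ± 0.31 for CDH8 (adjusted p = 0.000316) and 1.86 ± 0.35 for CDH11 (adjusted p = 0.00351, all edgeR). Without the library that stood apart, the log2 fold changes of these genes were 2.01, 2.58 and 1.87, and 9 cadherins were called. The CDH11 call was lost without control replicate 1 (1.66, adjusted p = 0.0574). CDH5 rested on 4 control counts, with a log2 fold change of 5.01 ± 1.04 (adjusted p = 0.00564, edgeR) that was 3.90 without control replicate 2 and 9.05 without control replicate 1, where no control count is left. Against a floor of 3 counts over both control libraries, CDH12 was at least 61.1-fold higher in SOX2-negative cells than in control colonies (adjusted p = 0.00148, edgeR).

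On the lower side, CDH6 in SOX2-negative cells had a log2 fold change of -6.99 ± 0.28 (SE; adjusted p = 1.39e-06) against control colonies, the largest of the members with counts in both groups. CDH9 was at least 410-fold lower (adjusted p = 0.000346). CDH1 was at -1.56 ± 0.24 (adjusted p = 0.000904) and CDH4 at -1.32 ± 0.24 (adjusted p = 0.00257, all edgeR). CDH3 had a log2 fold change of 0.37 ± 0.22 with an adjusted p of 0.257, and of 0.52 with an adjusted p of 0.0183 without SOX2-negative cells at 100 ng/ml, replicate 1 (edgeR).

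In SOX2-positive cells, which kept the reporter under the same FGF8 and WNT3A, 2 of the 10 cadherins changed against control colonies, both lower, where 7.81% of all genes were called, 4.65% higher and 3.17% lower. CDH2 averaged 80.6 ± 11.4 CPM in SOX2-positive cells and 192 ± 32.1 CPM in control colonies (SD, n = 2 for control), a log2 fold change of -1.32 ± 0.19 (SE; adjusted p = 0.00254, edgeR). Without control replicate 2, the higher of the control libraries, it was -1.12 with an adjusted p of 0.0638. CDH6 averaged 33.6 ± 10.1 CPM in SOX2-positive cells and 155 ± 17.4 CPM in control colonies, a log2 fold change of -2.29 ± 0.23 (SE; adjusted p = 0.000529, edgeR). So CDH2 RNA was higher than control in the SOX2-negative cells of the treated colonies and lower than control in their SOX2-positive cells. Control colonies also differed from both gates in markers. Of 7 markers tested for pluripotent cells, 4 were higher and 0 lower in SOX2-positive cells than in control colonies. In SOX2-negative cells 1 was higher and 3 were lower than in control colonies, where 12.4% of all genes were higher and 10.1% lower. The part of cell state in the cadherin differences from control was not tested. The labels name no gate for control colonies, so an effect of sorting cannot be told apart from that of treatment.

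CDH3 had more RNA in all 5 SOX2-positive libraries (141 to 173 CPM) than in control colonies (86.4 and 90.3 CPM), at a log2 fold change of 0.76 ± 0.22 (SE) and an adjusted p of 0.0628 by edgeR. It passed in 5 alternatives: without the low-count filter (adjusted p = 0.0147), in a fit of the compared groups alone (0.00347), with DESeq2 (0.0099) and without either replicate of SOX2-negative cells at 100 ng/ml (0.00517 without replicate 1 and 0.00521 without replicate 2). CDH9 had less in all 5 SOX2-positive libraries (0.55 to 6.45 CPM) than in control colonies (12.7 and 15.9 CPM), at -2.02 ± 0.69 (SE) with an adjusted p of 0.129. Without SOX2-positive cells at 1000 ng/ml, replicate 2, the highest of these, it was -3.36 with an adjusted p of 0.00709, and it also passed without the filter (3.78e-05), in the compared groups alone (0.0451) and with 3 doses averaged (0.0478). CDH8 was at -0.74 ± 0.28 (adjusted p = 0.153, edgeR) and passed without the filter (0.0359). CDH3, CDH9 and CDH8 passed in no other alternative. With 1 library left out, the log2 fold changes ran from 0.71 to 0.82 for CDH3, -3.36 to -1.59 for CDH9 and -0.94 to -0.59 for CDH8.

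For CDH1 the 95% interval of the log2 fold change between SOX2-positive cells and control colonies was -0.28 to 0.81 around 0.26 (adjusted p = 0.611, edgeR). CDH4 stood at -0.32 ± 0.24, CDH11 at -0.55 ± 0.32 and CDH5 at 1.74 ± 1.03 (SE; adjusted p = 0.51, 0.368 and 0.379, edgeR). CDH12 had 6 counts in SOX2-positive cells and none in control colonies, so no fold is given.

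**Figure D3:**
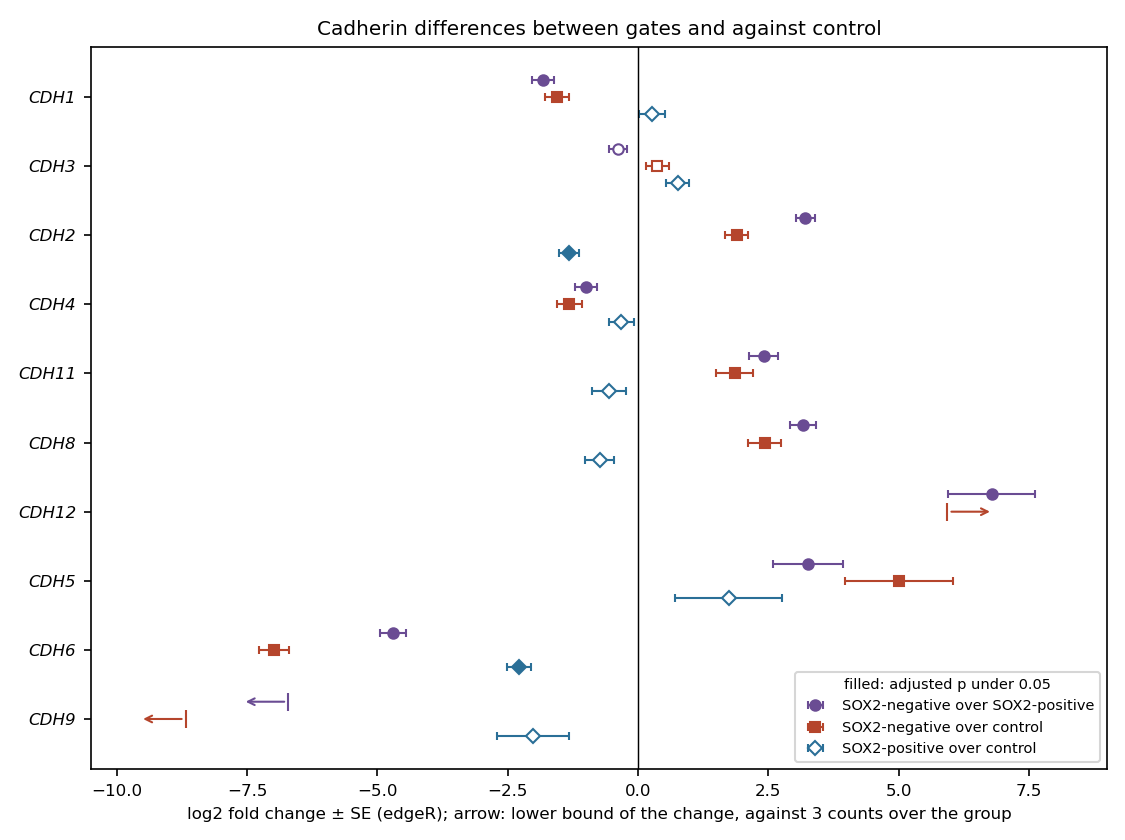
Log2 fold changes of the 10 cadherins between SOX2-negative and SOX2-positive cells, SOX2-negative cells and control, and SOX2-positive cells and control (edgeR), with bars of 1 SE and filled points for an adjusted p under 0.05. Arrows start at the bound from a floor of 3 counts where a group had no counts, and CDH12 has no point for SOX2-positive cells against control. CDH2 lies above 0 in both comparisons of SOX2-negative cells and at -1.32 for SOX2-positive cells against control.

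Across WNT3A doses no cadherin was called between 1000 and 100 ng/ml by edgeR, and neither was any other gene, in either gate or for the difference of the dose effects (0% of 17047 genes in each). At an unadjusted p under 0.05 there were 3 cadherins and 3107 genes in SOX2-negative cells, 1 cadherin and 293 genes in SOX2-positive cells, and 2 cadherins and 1349 genes for the difference. DESeq2 called 2, 0 and 0 cadherins and 423, 5 and 15 genes.

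The widest difference between doses was that of CDH11 in SOX2-negative cells. Its mean was 225 ± 143 CPM at 1000 ng/ml and 34.2 ± 4.46 CPM at 100 ng/ml (SD, n = 2 each), a log2 fold change of 2.66 ± 0.39 (SE; 95% interval 1.79 to 3.54; adjusted p = 0.0969, edgeR). Both libraries at 1000 ng/ml were above that at 300 ng/ml, which was above both at 100 ng/ml. Within repeats, the log2 difference of CPM plus 0.1 between 1000 and 100 ng/ml was 1.72 in replicate 1 and 3.39 in replicate 2. The adjusted p was 1.02e-08 under DESeq2 and 9.28e-18 in edgeR without the low-count filter, in runs that called 423 and 1551 genes between doses. Without SOX2-negative cells at 100 ng/ml, replicate 1, the log2 fold change was 2.72, and only the library that stood apart was left at that dose. It was 3.20 without those at 1000 ng/ml, replicate 1. Without the library that stood apart the log2 fold change was 2.62, with only replicate 1 left at 100 ng/ml.

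The summed mesenchyme markers also differed between doses in SOX2-negative cells, at 290 to 367 CPM at 100 ng/ml, 397 CPM at 300 ng/ml and 555 to 946 CPM at 1000 ng/ml. In SOX2-positive cells they stood at 358 to 470, 333 and 351 to 478 CPM at the same doses. Most of the difference was VIM, vimentin, with 138 and 152 CPM at 100 ng/ml, 240 CPM at 300 ng/ml and 371 and 626 CPM at 1000 ng/ml in SOX2-negative cells. PRRX1, a mesenchymal transcription factor, had 18.2 CPM in replicate 2 at 1000 ng/ml, the library with the most CDH11, and at most 0.42 CPM in the other SOX2-negative libraries. No marker passed edgeR's test between doses, and the part of mesenchymal cells in the CDH11 difference was not tested.

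In SOX2-positive cells CDH11 had a log2 fold change of 0.75 ± 0.38 (SE) for the same doses. The difference of the dose effects between the gates was 1.91 ± 0.54 (SE; adjusted p = 0.525, edgeR), or 1.98 without SOX2-negative cells at 100 ng/ml, replicate 1. Without the filter its adjusted p was 0.000338 (edgeR), in a run that called 308 genes.

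CDH3 in SOX2-negative cells ran the other way with dose, at 84.2 ± 4.56 CPM at 1000 ng/ml and 149 ± 40.8 CPM at 100 ng/ml (SD, n = 2 each), a log2 fold change of -0.90 ± 0.25 (SE; adjusted p = 0.246, edgeR). It was called by DESeq2 (adjusted p = 0.0308) and by edgeR without the filter (0.0154). Its log2 fold change was -1.21 without replicate 1 at 100 ng/ml and -0.48 without replicate 2 there, the library that stood apart. CDH8 was at 0.73 ± 0.32 (adjusted p = 0.267, edgeR), at 1.14 without replicate 1 at 100 ng/ml and at 0.42 without replicate 2 there. Within repeats, the log2 difference of CPM plus 0.1 for CDH8 was 0.05 in replicate 1 and 1.54 in replicate 2. CDH12 had 263 counts at 1000 ng/ml and 73 at 100 ng/ml, a log2 fold change of 1.60 ± 0.75 (SE; adjusted p = 0.285, edgeR) that was 1.18 without replicate 2 at 100 ng/ml. Its log2 difference within repeats was 0.44 in replicate 1 and 2.70 in replicate 2. CDH1, CDH2, CDH4, CDH5 and CDH6 had dose effects between -0.45 and 0.33 on the log2 scale in SOX2-negative cells, each with an adjusted p of at least 0.371 (edgeR), and between -0.64 and 0.38 without replicate 2 at 100 ng/ml.

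The genes whose levels followed a cadherin most closely were sought as a description, by Pearson's r of log2 CPM over the 12 libraries. These points share colonies, gates and repeats, so a gene that separates the 3 sets of libraries scores high with no closer link. For CDH1 the closest was GRHL2 (r = 0.978), an activator of epithelial genes, followed by SLC18A2 (0.978) and ZBED8 (0.976), for CDH2 it was ISOC1 (r = 0.989), followed by the semaphorin receptor PLXNA2 (0.989) and the desmosome gene PKP2 (0.987), and for CDH9 it was CTNNA2 (r = 0.995), a catenin of neurons, followed by GPR153 (0.989) and EPHB1 (0.986). CDH5 was closest to TBX3 (r = 0.97), a T-box factor of early mesoderm and heart, at 71.9 to 247 CPM in SOX2-negative, 0.26 to 5.85 CPM in SOX2-positive and 0.57 to 1.62 CPM in control libraries, and next to ADRA1B (0.968) and ZDHHC8P1 (0.963). CDH11 was closest to RGS5 (r = 0.972), a regulator of G-protein signalling known from pericytes, and next to YIPF5 (0.949) and HOXB3 (r = 0.946), which had 0.30 to 9.33 CPM in SOX2-negative libraries and no count elsewhere.

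The closest genes to CDH3 were CCM2L (r = 0.965), DNPEP (0.964) and PSME1 (0.962), and those to CDH4 SLCO3A1 (0.986), KCNMA1 (0.979) and INA (0.979). For CDH6 they were TGIF2 (0.99), ADSS (0.987) and SEL1L3 (0.985), for CDH8 IFI16 (0.991), PROS1 (0.989) and PAPSS1 (0.987), and for CDH12 DAB2 (0.982), RAB31 (0.978) and TCP11L1 (0.975). DAB2, an endocytic adaptor, had 72.3 to 210 CPM in SOX2-negative, 5.37 to 11.0 CPM in SOX2-positive and 4.38 to 5.11 CPM in control libraries.

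The catenins that tie cadherins to the cytoskeleton were next compared between the gates. Of 12 catenins and adaptors, 2 were higher in SOX2-negative cells and 4 lower, with a median log2 fold change of -0.13 over the list and 0.01 over all genes. Beside this and the list counts that follow stands the share of all genes called between the gates, 24.0% (12.9% higher, 11.1% lower). β-Catenin (CTNNB1), which both binds cadherin tails and carries the WNT signal, averaged 513 ± 72.7 CPM in SOX2-negative and 487 ± 33.8 CPM in SOX2-positive cells (adjusted p = 0.469, edgeR). CTNNA2 was lowest, with 4.36 ± 0.62 CPM in SOX2-negative and 18.7 ± 6.61 CPM in SOX2-positive cells, a log2 fold change of -2.02 ± 0.27 (SE; adjusted p = 0.000335). VCL, vinculin, which joins stretched α-catenin to actin, was at -1.12 (adjusted p = 0.00264) and CTNND2, the δ-catenin of neurons, at -0.88 (adjusted p = 0.00621). CTNND1 (p120-catenin, -0.46), CTNNAL1 (0.60) and JUP (γ-catenin or plakoglobin, 0.65) were called at adjusted p of 0.0372, 0.0192 and 0.0217, and each lost its call in 5 or more alternatives. Their adjusted p reached 0.136 for CTNND1 and 0.0906 for JUP, both without SOX2-positive cells at 100 ng/ml, replicate 2, and 0.0796 for CTNNAL1 without those at 1000 ng/ml, replicate 1.

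Among the other cadherins, 4 were higher and 1 lower of 10 tested from a list of 13, and all 5 had under 10 CPM in every library used. CDH18 had 1.88 ± 0.89 CPM in SOX2-negative and 0.29 ± 0.15 CPM in SOX2-positive cells (log2 fold change 2.77, adjusted p = 0.00607, edgeR). CDH10, CDH20 and CDH22 had log2 fold changes of 2.31, 2.30 and 2.30 (adjusted p = 0.0124, 0.0162 and 0.00792). CDH7 was at -2.42 (adjusted p = 0.0343). Without SOX2-positive cells at 100 ng/ml, replicate 1, the calls of CDH10 (adjusted p = 0.0521), CDH20 (0.0596) and CDH7 (0.0848) were lost, and CDH7 lost its call in 8 alternatives in all, including that without the library that stood apart (0.0517). Without SOX2-negative cells at 1000 ng/ml, replicate 2, CDH18 was at 2.14 and CDH7 at -5.16, and without SOX2-positive cells at 1000 ng/ml, replicate 2, CDH10 was at 3.18.

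Desmosomes are the cadherin junctions that bind intermediate filaments. Of 7 tested desmosome genes, 3 were higher and 1 lower in SOX2-negative cells. PKP2, plakophilin 2, had 110 ± 22.1 CPM in SOX2-negative and 23.0 ± 2.94 CPM in SOX2-positive cells (log2 fold change 2.33 ± 0.17 SE, adjusted p = 6.2e-06, edgeR). PKP1 had 2.88 ± 1.33 CPM in SOX2-negative cells and was listed at 0 in 3 of 4 SOX2-positive libraries (adjusted p = 0.00535). The desmosomal cadherin DSC2 was at 0.72 (adjusted p = 0.0333, lost in 8 alternatives, at up to 0.129 without SOX2-positive cells at 1000 ng/ml, replicate 2). DSC3 was at -1.97 (adjusted p = 0.00647), and at -2.57 without SOX2-negative cells at 100 ng/ml, replicate 1.

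Protocadherins and giant cadherins, which share the extracellular repeats but not the catenin-binding tail, moved both ways: 8 higher and 6 lower of 18 tested. PCDH17 had 59.4 ± 55.8 CPM in SOX2-negative and 3.18 ± 1.54 CPM in SOX2-positive cells (log2 fold change 3.86 ± 0.40 SE, adjusted p = 6.01e-05, edgeR). PCDH7 was at 3.21 (adjusted p = 1.81e-05), PCDH9 at 2.35 (0.00326) and PCDH8, known from paraxial mesoderm in mouse, at 2.15 (0.000679). PCDH11X had 1.94 ± 0.81 CPM in SOX2-negative and 18.4 ± 3.27 CPM in SOX2-positive cells (log2 fold change -3.20 ± 0.32 SE, adjusted p = 5.05e-05). PCDH18 was at -1.88 (0.000471), FAT1 at -1.26 (0.00148) and FAT3 at -1.04 (0.0192). The FAT3 call was lost in 3 alternatives, with the highest adjusted p (0.0728) without SOX2-negative cells at 1000 ng/ml, replicate 1.

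The transcription factors that act on CDH1 included both repressors and activators among those that changed, 6 higher and 1 lower of 11 tested. TWIST1 had 6.71 ± 3.55 CPM in SOX2-negative and 0.14 ± 0.13 CPM in SOX2-positive cells (log2 fold change 5.59 ± 0.62 SE, adjusted p = 9.15e-05, edgeR). Without SOX2-positive cells at 1000 ng/ml, replicate 1, the TWIST1 fold change was 7.88, with no count left at that dose. The repressors SNAI2 (3.97, adjusted p = 1.35e-05) and ZEB1 (1.72, adjusted p = 0.00811) were also higher, and SNAI1 was at 1.67 (adjusted p = 0.00148). OVOL2, which represses ZEB1 and so favours epithelium, was higher too, at 26.6 ± 10.5 CPM in SOX2-negative and 6.99 ± 1.44 CPM in SOX2-positive cells (2.02, adjusted p = 0.000443), as was ELF3, an epithelial ETS factor (1.21). GRHL2, the epithelial activator closest to CDH1 across libraries, had 17.3 ± 4.97 CPM in SOX2-negative and 42.5 ± 3.06 CPM in SOX2-positive cells (-1.22 ± 0.22 SE, adjusted p = 0.00217).

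Of 11 genes that process or recycle cadherins, 3 were higher and 1 lower, where 24.0% of all genes were called. FURIN, a protease that removes the cadherin propeptide, had 174 ± 12.9 CPM in SOX2-negative and 89.7 ± 25.7 CPM in SOX2-positive cells (log2 fold change 1.06 ± 0.18 SE, adjusted p = 0.0014, edgeR). Its relative PCSK6 was at 0.92 (adjusted p = 0.0209), the γ-secretase subunit NCSTN at 0.58 (0.0101) and the endosome GTPase RAB5A at -0.61 (0.0281), and each of these 3 lost its call in at least 1 alternative. The highest adjusted p was 0.0603 for NCSTN without SOX2-positive cells at 100 ng/ml, replicate 2, and 0.082 for PCSK6 and 0.0876 for RAB5A without replicate 1 there. ADAM10, the protease that sheds E- and N-cadherin, averaged 193 ± 71.9 CPM in SOX2-negative and 173 ± 9.52 CPM in SOX2-positive cells (adjusted p = 0.539).

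**Figure D4:**
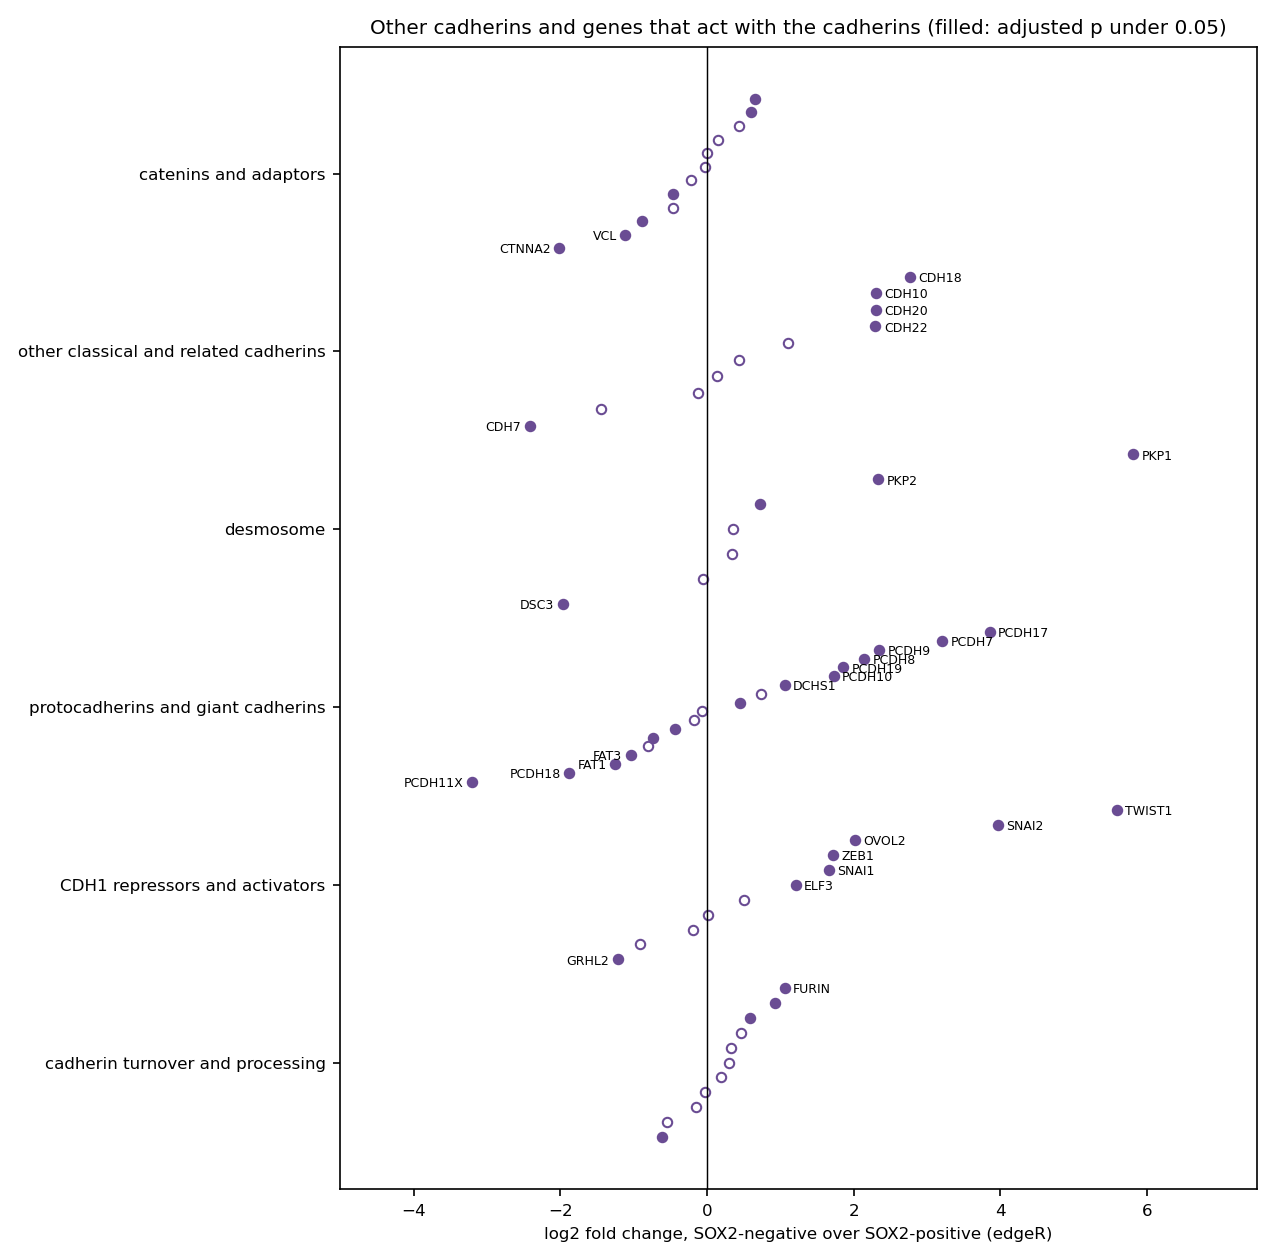
Log2 fold changes between SOX2-negative and SOX2-positive cells (edgeR) of the genes tested in 6 lists around the cadherins, 1 point per gene, filled for an adjusted p under 0.05, with called genes past 1 log2 unit named. Other cadherins, desmosome genes, protocadherins and regulators of CDH1 reach past 2 in the higher direction, and the turnover genes lie within 1.1 of 0.

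The members lie on 4 chromosomes (GRCh38, GENCODE 29). On chromosome 16, CDH8 (61647242 to 62037035), CDH11 (64943753 to 65126112), CDH5 (66366622 to 66404786), CDH3 (68636189 to 68722616) and CDH1 (68737225 to 68835548) follow each other. On chromosome 5 lie CDH12 (21750673 to 22853622), CDH9 (26880600 to 27121150) and CDH6 (31193750 to 31329146). CDH2 is on chromosome 18 (27950966 to 28177446) and CDH4 on chromosome 20 (61252426 to 61940617). On chromosome 16, CDH8, CDH11 and CDH5, with gaps of 2907 and 1241 kb, were all higher in SOX2-negative than SOX2-positive cells. CDH3 was not called there and CDH1 was lower. On chromosome 5 CDH12 was higher, and CDH9 and CDH6, with a gap of 4073 kb, were both lower.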

How the data were processed

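Messenger RNA was selected by poly-A tail and sequenced as paired ends, per the labels' protocols. Salmon and the build GRCh38 stand in the submitters' processing notes with no role given, and strand and annotation release are not given in the sources used here. Estimated counts of each gene, unscaled between libraries, are what the authors deposited. Antisense genes overlap exons of several members, and without a stated strand their reads cannot be told apart.

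Estimated counts were summed per symbol (37951 identifiers, 35940 symbols) and rounded. All 12 libraries entered 1 edgeR 4.0.16 model (R 4.3.3) with a mean for each of 7 groups, TMM scaling, filterByExpr (minimum count 10, total 15) and the two-sided quasi-likelihood test, leaving 5 residual degrees of freedom. CPM uses plain library totals. SE is the log2 fold change over the square root of F. The fit was tested on simulated data. Alternatives were another scaling (RLE), no filter, DESeq2 1.42.0, identifiers apart, a replicate block, the compared groups alone, 3 doses averaged and each library left out.

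Groups and replicate numbers come from the titles, and the protocols call the second set a biological repeat, which pairs libraries by number. As a check, same-numbered libraries' deviations from their group's mean had correlations of -0.06 to 0.22 in 10 group pairs, 5 of them over 0.1. Members and lists were chosen with earlier results of these data known. Named are all members, from each list up to 4 genes per direction with the largest change among those called between the gates, and the 3 genes most correlated with each member. ADAM10, CTNNB1, SNAI1 and ELF3 were named after their values were seen. Intervals and floors cover the spread between libraries or counting error only.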

Additional observations from a re-analysis of the deposited data

How the results depend on the processing

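Between the gates, the 9 called cadherins kept direction and call under RLE scaling, no filter, DESeq2, identifiers apart, the compared groups alone, 3 doses averaged, the replicate block and each library left out, and 21 of 32 named list genes kept theirs. The number of genes called between the gates was 4085, 4106 with the replicate block and 2638 to 6835 with 1 library left out. The block changed no call of a member or named gene, and 1 gene in place of 0 was called between doses in SOX2-negative cells. For SOX2-positive cells against control, 1332 genes and 2 cadherins became 2158 and 5 without the filter, 3243 and 4 in the compared groups alone and 2077 genes under DESeq2, with 250 to 2439 genes and 1 to 3 cadherins when 1 library was left out. SOX2-negative cells against control gave 1749 to 6111 genes and 8 to 10 cadherins with 1 library left out. For dose in SOX2-negative cells, 1551 genes and 2 cadherins were called without the filter, 1 gene in the compared groups alone, 423 genes and 2 cadherins under DESeq2, and 0 to 5739 genes and 0 to 3 cadherins with 1 library left out, where the highest count came without replicate 1 at 100 ng/ml. For dose in SOX2-positive cells, 107 genes were called without the filter, 1 with identifiers apart and 5 under DESeq2. For the difference of the dose effects these were 308, 1 and 15 genes, with 1 cadherin without the filter and 0 to 3795 genes and 0 to 2 cadherins with 1 library left out. Small dose effects turned sign, and the cause was not tested. In SOX2-negative cells CDH4 was 0.049 with identifiers apart. With 1 library left out, dose effects in SOX2-negative cells ran from -0.38 to 0.19 for CDH2, -0.57 to 0.24 for CDH4 and -1.28 to 0.20 for SOX2. In SOX2-positive cells they ran from -0.20 to 0.028 for CDH3, -0.019 to 0.67 for CDH8 and -2.79 to 0.76 for CDH9, and their differences from -0.66 to 0.25 for CDH1, -0.37 to 0.44 for CDH4 and -1.16 to 0.32 for SOX2. With the median transcript length the ratio of CDH2 to CDH1 at 100, 300 and 1000 ng/ml was 24.4, 36.1 and 31.4 in SOX2-negative cells and 0.65, 0.91 and 0.98 in SOX2-positive ones, and it was 2.38 in control colonies, and the order and shares of the cadherins per kilobase moved with it. With 2 libraries per group at most and 1 at 300 ng/ml, where no spread is known, differences of CDH5, CDH9 and CDH12, which rest on few counts, are the least precise.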
